A study of Mus musculus with 9 samples.

Results

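Axin2, Nkd1, Notum, Rnf43, Znrf3, Lgr5, Lef1, Tcf7, Tcf7l1 and Sp5 are genes that act in negative feedback on Wnt/beta-catenin signaling, serve as its transcriptional readouts, or code for the Tcf/Lef factors through which beta-catenin acts. These 10 genes were chosen by name for that role, with earlier results of these data known, and the rule uses no measured value. All 10 were found among the 27360 rows of the table, which hold 21356 distinct gene names, and all 10 were among the 14041 genes tested. In the midbrain of Gpr161 cKO fetuses, 7 of the 10 were higher than in the floxed control, beside 19.5% of all genes tested. In either direction 38.3% of all genes passed that test. Only Notum passed the fold change limit of 1.5, and the 7 became 4 without floxed control library 3. Against the Cre control, Notum and Tcf7l1 were higher and Axin2 was lower, beside 4.86% of all genes higher and 4.85% lower. Axin2 lost its call in 13 of 17 alternative settings and Tcf7l1 in 3. Lef1 and Lgr5 passed the test in neither comparison.

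Wnt proteins bind Frizzled receptors and Lrp5 or Lrp6 at the cell surface, which stops the destruction complex of Axin, Apc and Gsk3 from marking beta-catenin for degradation. Stabilized beta-catenin enters the nucleus and binds Tcf/Lef factors at their target genes. Several of these targets code for inhibitors of the pathway itself, so their transcripts are widely read as a measure of pathway activity. In the embryonic midbrain Wnt1 comes from the dorsal midline and the isthmus and sustains patterning and progenitor growth.

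RNA was sequenced as poly-A selected libraries from dissected midbrain of C57BL/6 mice at E13.5, with 3 libraries per genotype and 9 in all. The floxed control was Gpr161 f/f without Cre, the Cre control was Gpr161 f/+ with Wnt1-Cre, and the cKO was Gpr161 f/f with Wnt1-Cre. All 9 libraries therefore came from animals with at least 1 floxed Gpr161 allele, and none was from a wild type. Gpr161 is a receptor of the primary cilium that restrains Hedgehog signaling, and the comparisons address whether Wnt target genes differ when it is deleted in the Wnt1 lineage. Wnt1-Cre is a transgene in which Wnt1 regulatory sequence drives Cre in the midbrain and the neural crest. Cells of the tissue that never expressed Cre keep their Gpr161 alleles. Ectopic Wnt1 expression from this transgene is known. Neither the labels nor the methods say whether a library was made from 1 fetus or from several, so p-values measure the spread between these libraries, which may be in part technical.

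The values were deposited on a log2 scale and lay between -2.12 and 17.95. On the linear scale (2 to the power of the value) they summed to between 26391100 and 27283100 per library, and cpm below is a gene's share of that sum on the usual cpm scale. No read counts are part of the table, so library depth is unknown. Gpr161 had a mean log2 value of 11.77 ± 0.030 (SD, n = 3) for the floxed control, 11.88 ± 0.096 for the Cre control and 11.88 ± 0.12 for the libraries labelled cKO. The table gives 1 value for the whole gene and does not separate the deleted exons, so this value checks neither the deletion nor the labels. The 9 midbrain patterning markers, among them Otx2, En1 and En2, were all detected and summed to between 538 and 664 cpm. The sums were 42.2 to 57.1 cpm for 4 forebrain markers and 16.1 to 30.5 cpm for 5 hindbrain markers. These lists differ in their number of genes and are not corrected for length, so their sums do not measure the share of each region.

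Wnt1, whose regulatory sequence drives the Cre, differed more from the floxed control than any of the 10 genes, in both genotypes with Wnt1-Cre. Its log2 value was 9.22, 9.08 and 9.25 in the floxed control, then 11.01, 10.91 and 10.89 in the Cre control, and 10.57, 10.80 and 10.59 in the cKO. Both genotypes with Wnt1-Cre lay far above the floxed control. Wnt1 rose by 1.75 on the log2 scale in the Cre control (SE 0.071, adjusted p = 3.464e-06) and by 1.46 in the cKO (adjusted p = 1.724e-05) over the floxed control, and it was 0.28 lower in the cKO than in the Cre control (adjusted p = 0.0373). That last call was lost in 8 of 17 alternatives, with adjusted p up to 0.145 without cKO library 1. A comparison with the floxed control therefore differs in the transgene and in the Gpr161 genotype together, which cannot be told apart there, while the cKO and the Cre control both carry the transgene.

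Promoters are shown for 3 of the 10 genes, the readouts Sp5 and Axin2 and the factor gene Tcf7l1. RefSeq windows on GRCm38.p6, from 250 bases before to 50 bases after each annotated start, were available for 7 of the 10 genes, and Notum, Znrf3 and Lgr5 had none in the table used. Capitals mark matches to the Tcf/Lef core CTTTGA, or to its longer form CTTTGAT, which holds the shorter one. Sp5 lies at chr2:70474673-70474972 on the plus strand, Axin2 at chr11:108920099-108920398 on the plus strand and Tcf7l1 at chr6:72788996-72789295 on the minus strand, and each is written 5′ to 3′ along its gene.
Sp5: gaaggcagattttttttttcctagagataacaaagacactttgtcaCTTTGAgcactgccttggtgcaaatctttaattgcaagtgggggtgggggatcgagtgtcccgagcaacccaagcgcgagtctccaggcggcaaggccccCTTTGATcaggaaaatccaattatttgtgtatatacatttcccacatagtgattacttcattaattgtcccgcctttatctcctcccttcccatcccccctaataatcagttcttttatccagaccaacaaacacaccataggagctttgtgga
Axin2: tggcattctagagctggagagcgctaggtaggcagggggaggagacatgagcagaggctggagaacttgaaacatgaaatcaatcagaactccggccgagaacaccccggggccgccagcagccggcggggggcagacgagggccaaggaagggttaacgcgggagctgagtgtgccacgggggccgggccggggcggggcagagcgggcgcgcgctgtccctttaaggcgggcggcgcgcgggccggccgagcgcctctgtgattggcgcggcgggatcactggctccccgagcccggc
Tcf7l1: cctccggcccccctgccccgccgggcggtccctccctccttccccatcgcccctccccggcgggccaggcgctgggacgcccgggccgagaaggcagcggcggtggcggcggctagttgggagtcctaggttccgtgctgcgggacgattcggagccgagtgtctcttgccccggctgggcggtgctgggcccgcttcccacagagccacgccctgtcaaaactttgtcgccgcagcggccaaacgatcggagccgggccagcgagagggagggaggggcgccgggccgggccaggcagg

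The Sp5 window holds CTTTGA on its own strand at -204 to -199 and at -104 to -99 from the start site, and the second copy is read as CTTTGAT to -98. A search of both strands found CTTTGA in 16% of all 32851 RefSeq promoter windows and 2 or more copies in 1.73%. CTTTGAT was in 3.73% of them. Among the 12 windows of the 7 genes, CTTTGA was in 2, the Sp5 window and 1 of the Lef1 windows, where it stands on the opposite strand at -180 to -175 and at -120 to -115. The Axin2 and Tcf7l1 windows hold neither form, and these letters say nothing of sites elsewhere. GACCACCCA, the motif of the Gli factors of Hedgehog signaling, was in 0.253% of all windows and in 0 of the 12. A match is a description of the letters and not a measured binding site.

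Axin2 codes for a scaffold of the destruction complex and is the most used readout of the pathway. Its log2 value was 11.08, 11.12 and 11.16 in the floxed control, then 11.23, 11.22 and 11.19 in the Cre control, and 11.11, 11.09 and 11.04 in the cKO. The cKO values overlapped the floxed control, and all 3 Cre control values lay above all others. Axin2 did not pass the test between the cKO and the floxed control, where the log2 difference was -0.038 (95% interval -0.12 to 0.044, adjusted p = 0.442), so a rise of the size seen in Tcf7l1 lies outside that interval. It was 0.14 lower on the log2 scale in the cKO than in the Cre control (SE 0.037, adjusted p = 0.0477), a ratio of 0.910. That call was lost in 13 of 17 alternative settings, with adjusted p between 0.0365 and 0.119 over all of them. Axin2 lies at chr11:108920349-108950783 on the plus strand (GRCm38).

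Nkd1 codes for a cytoplasmic inhibitor that binds Dishevelled, and Sp5 for a zinc finger factor that is a direct Wnt target. Nkd1 had log2 values of 11.69, 11.67 and 11.75 in the floxed control, then 12.01, 11.99 and 11.83 in the Cre control, and 11.92, 11.99 and 11.92 in the cKO. Both genotypes with Wnt1-Cre lay above the floxed control without overlap, and they overlapped each other. Nkd1 rose by 0.24 in the cKO over the floxed control (SE 0.052, adjusted p = 0.00602). Between the cKO and the Cre control it differed by -0.0024 (95% interval -0.12 to 0.11, adjusted p = 0.983). The Cre control was higher than the floxed control by 0.24 on the log2 scale, which did not pass the adjusted test (adjusted p = 0.144).

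Sp5 had log2 values of 8.66, 8.63 and 8.66 in the floxed control, then 9.02, 8.98 and 8.93 in the Cre control, and 8.83, 8.84 and 8.74 in the cKO. The cKO libraries lay between the control groups, and none of the groups overlapped. Sp5 was 0.16 higher in the cKO than in the floxed control (SE 0.049, adjusted p = 0.0299), a call lost in 7 of 17 alternatives, with adjusted p up to 0.0995 when cKO library 2 was left out. The log2 difference of the Cre control from the floxed control was 0.32 (95% interval 0.22 to 0.43, adjusted p = 0.0624), and between the cKO and the Cre control it was -0.17 (adjusted p = 0.0581). The first of these passed with limma's eBayes without a trend (adjusted p = 0.0395), and the second passed in that fit (adjusted p = 0.0462) and after quantile normalization (adjusted p = 0.0493).

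**Figure D1:**
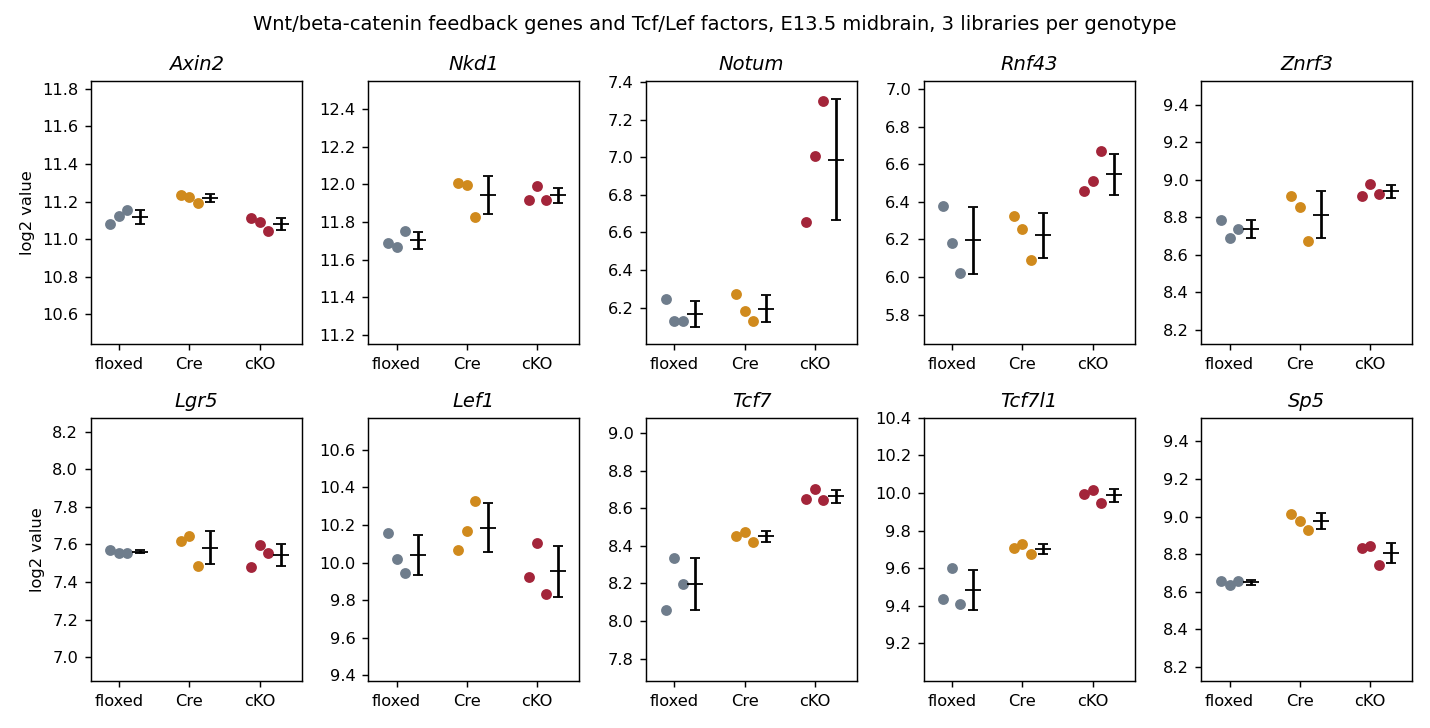
Each panel shows 1 gene, with the log2 value of each library on the vertical axis, the 3 genotypes on the horizontal axis, and the mean with its SD (n = 3) as a bar beside the points. All panels span the same number of log2 units, and Notum in the cKO, between 6.65 and 7.30, stands clear of both control groups, which lie between 6.13 and 6.27.

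Notum codes for a secreted enzyme that removes the lipid from Wnt proteins and so inactivates them outside the cell. Its log2 value was 6.24, 6.13 and 6.13 in the floxed control, then 6.27, 6.18 and 6.13 in the Cre control, and 6.65, 7.01 and 7.30 in the cKO. The control genotypes overlapped, all 3 cKO libraries lay above them, and the cKO libraries spread more widely than any control group. Notum rose by 0.82 in the cKO over the floxed control (95% interval 0.53 to 1.11, adjusted p = 0.00153), which is 1.77-fold. It rose by 0.79 over the Cre control (adjusted p = 0.0111), or 1.73-fold, and the Cre control differed from the floxed control by 0.028 (95% interval -0.26 to 0.32, adjusted p = 0.924). With each library left out in turn, the difference stayed between 0.665 and 0.99 against the floxed control and between 0.64 and 0.96 against the Cre control, and it kept its call each time. Notum is weakly expressed, and the filter at 5 cpm removed it. Notum lies at chr11:120653788-120661175 on the minus strand (GRCm38).

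Rnf43 and Znrf3 code for membrane ubiquitin ligases that remove Frizzled receptors from the cell surface, and Lgr5 for a receptor of the R-spondins, which hold these ligases back. Rnf43 had log2 values of 6.38, 6.18 and 6.02 in the floxed control, then 6.32, 6.25 and 6.09 in the Cre control, and 6.46, 6.51 and 6.67 in the cKO. All cKO libraries lay above all controls, by a narrow margin at the floxed control library of 6.38. Rnf43 rose by 0.35 over the floxed control (SE 0.099, adjusted p = 0.0190), a call lost without floxed control library 3 (adjusted p = 0.0740) or cKO library 3 (adjusted p = 0.0701). Against the Cre control the difference of 0.32 did not pass (adjusted p = 0.0658), and it did when Cre control library 1 was left out (adjusted p = 0.0353).

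Znrf3 had log2 values of 8.79, 8.69 and 8.74 in the floxed control, then 8.91, 8.86 and 8.67 in the Cre control, and 8.91, 8.98 and 8.93 in the cKO. The cKO lay above the floxed control without overlap, while the Cre control spread across both. The rise of 0.20 over the floxed control (SE 0.065, adjusted p = 0.0359) was lost in 8 of 17 alternatives, with adjusted p up to 0.107 without cKO library 2. Lgr5 lay between 7.48 and 7.65 in all 9 libraries, and the 3 genotypes overlapped. Its log2 difference between the cKO and the floxed control was -0.017 (95% interval -0.15 to 0.12, adjusted p = 0.847).

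Tcf7l1 and Tcf7 code for DNA-binding partners of beta-catenin. Tcf7l1 acts mostly as a repressor of Wnt targets that is relieved by beta-catenin, and Tcf7 can activate them and is itself a target. Tcf7l1 had log2 values of 9.44, 9.60 and 9.41 in the floxed control, then 9.71, 9.73 and 9.67 in the Cre control, and 9.99, 10.02 and 9.95 in the cKO. The 3 genotypes lay in that order with no overlap. Tcf7l1 rose by 0.50 in the cKO over the floxed control (SE 0.056, adjusted p = 3.945e-04), or 1.42-fold, and by 0.28 over the Cre control (adjusted p = 0.0182). The second call was lost without Cre control library 3 (adjusted p = 0.0691), cKO library 1 (adjusted p = 0.0687) or cKO library 2 (adjusted p = 0.0600).

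Tcf7 had log2 values of 8.06, 8.34 and 8.20 in the floxed control, then 8.45, 8.48 and 8.42 in the Cre control, and 8.65, 8.70 and 8.64 in the cKO. It showed the same order of genotypes with no overlap, and the widest spread was in the floxed control. Tcf7 rose by 0.47 in the cKO over the floxed control (SE 0.069, adjusted p = 0.00113), or 1.38-fold. The difference of 0.21 over the Cre control missed the threshold (adjusted p = 0.0752), and it passed without floxed control library 2 (adjusted p = 0.0496).

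Lef1 codes for an activating partner of beta-catenin and is a common readout of the pathway. Its log2 value was 10.16, 10.02 and 9.95 in the floxed control, then 10.07, 10.17 and 10.33 in the Cre control, and 9.93, 10.10 and 9.83 in the cKO. The genotypes overlapped in every comparison. The log2 difference was -0.087 from the floxed control (95% interval -0.28 to 0.11, adjusted p = 0.453) and -0.23 from the Cre control (95% interval -0.43 to -0.040, adjusted p = 0.111). The second passed without Cre control library 1 (adjusted p = 0.0417).

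Counted over the 10 genes, 7 passed the adjusted test between the cKO and the floxed control, all higher, where 38.3% of all 14041 genes passed, 19.5% as higher and 18.8% as lower. The same 7 genes (Nkd1, Notum, Rnf43, Znrf3, Tcf7, Tcf7l1 and Sp5) had cKO values above the floxed control without overlap, which 29.9% of all genes did, with 27.2% below the floxed control and 57.1% apart in either direction. At an unadjusted p under 0.05 these 7 passed as well, beside 48.1% of all genes. 1 gene, Notum, passed both the test and the fold change limit, against 2.92% of all genes. The median log2 difference of the 10 was 0.22, beside 0.011 over all genes. Left out 1 library at a time, between 4 and 7 of the 10 passed, and the fewest passed without floxed control library 3.

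Between the cKO and the Cre control, 3 of the 10 passed, 2 higher (Notum and Tcf7l1) and 1 lower (Axin2), where 9.71% of all genes passed, 4.86% higher and 4.85% lower. The groups did not overlap for 6 of the 10, 4 higher and 2 lower, beside 31.5% of all genes, 17.8% higher and 13.7% lower. Notum alone passed the fold change limit, against 0.563% of all genes. At an unadjusted p under 0.05, 7 of the 10 passed, beside 29.3% of all genes. The median log2 difference was 0.061, beside 0.012 over all genes. The count ranged from 1 to 5 with a library left out: 5 passed without Cre control library 1, and 1 passed without Cre control library 3, cKO library 1 or cKO library 2.

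In the comparison of the control genotypes, 0 of the 10 passed limma's adjusted test, where 0.057% of all genes did, 0.0499% higher and 0.00712% lower, and 0.0285% passed the fold change limit too. At an unadjusted p under 0.05, 5 passed (Axin2, Nkd1, Tcf7, Tcf7l1 and Sp5), beside 17.5% of all genes, and without a trend in eBayes 1 passed, Sp5. The same 5 genes were higher in the Cre control without overlap, beside 10.7% of all genes, 12% lower and 22.8% in either direction, and the mean was higher in the Cre control for 10 of 10. The median log2 difference was 0.12, beside -0.0010 over all genes. Any 2 of the 3 comparisons share a genotype, so their counts are not independent of each other.

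**Figure D2:**
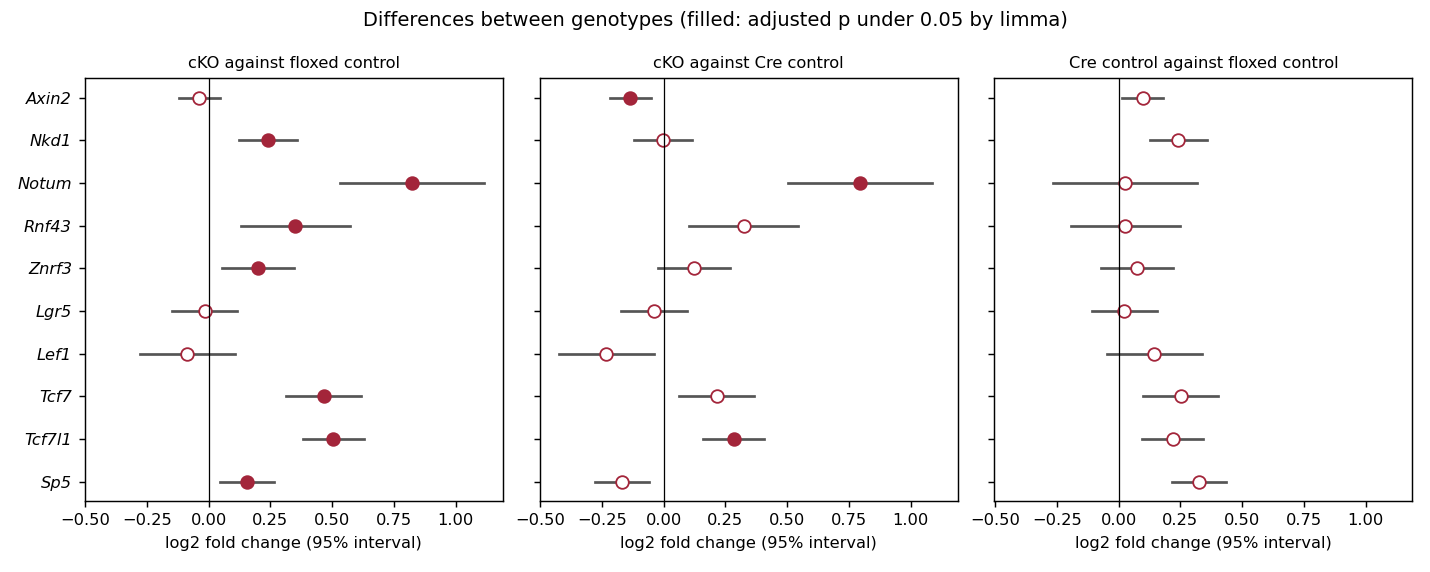
Each panel shows 1 comparison, with the log2 fold change of each of the 10 genes on the horizontal axis and its 95% interval as a line, and filled points mark an adjusted p under 0.05 by limma. Notum lies furthest to the right in both comparisons of the cKO, at 0.82 and 0.79, and at 0.028 in the comparison of the control genotypes, where no point is filled.

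The 10 genes did not move as a block across the libraries. Set against the mean of the floxed control, all 3 cKO libraries were higher for 7 genes, and all 3 Cre control libraries for Sp5, Nkd1, Axin2, Lef1, Tcf7 and Tcf7l1. Over the 9 libraries Tcf7 and Tcf7l1 had a Pearson correlation of 0.97, Notum and Rnf43 of 0.89, and Nkd1 and Sp5 of 0.82. Axin2 correlated at 0.70 with Sp5 and at -0.68 with Notum. These are descriptions over n = 9 libraries that share their genotype and their tissue makeup.

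**Figure D3:**
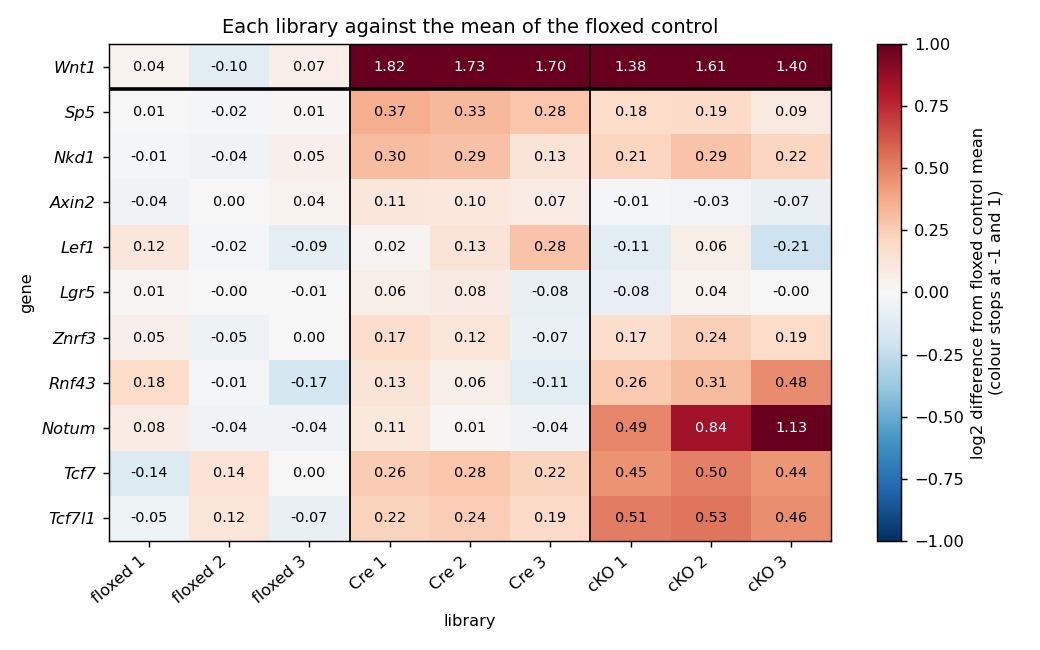
Each cell gives the log2 difference of 1 library (columns, 3 per genotype) from the mean of the floxed control for 1 gene (rows), with Wnt1 above the line and the colour stopping at -1 and 1. Wnt1 is high in all 6 libraries with Wnt1-Cre, Sp5 is highest in the Cre control, and Notum and Rnf43 are highest in the cKO.

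For each gene that passed a test, the genes most like it over the 9 libraries were found by Pearson correlation among all genes tested. They were Stub1, Btla and Mogat2 for Notum (0.96 each), Gramd3, Ecscr and Calu for Tcf7 (0.99 each), and, for Tcf7l1, Ctsz and Snx9 (0.99 each). For Axin2 they were Ptar1 (0.92), Cmbl (0.90) and Cubn (0.89). None of the 10 genes was among the nearest 3 of another. The nearest for Sp5 were Nfyb, Ptpn21 and Ikzf2 (0.93 to 0.95), for Nkd1 1810013A23Rik, Papln and Frmd8 (0.95 to 0.96), for Rnf43 Nxf1, Hdac9 and Ppp4r1l-ps (0.93 to 0.96), and for Znrf3 Tmem40, Trmo and Cnep1r1 (0.94 to 0.97).

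Levels can be compared between genes only per length. On the linear scale, as cpm per kilobase of exon, Nkd1 had the highest median over the 9 libraries at 31.1 (range 26.7 to 34.2), followed by Axin2 at 15.2 (14.1 to 16.6). The next were Tcf7l1 at 8.07 (6.4 to 9.77) and Sp5 at 8.03 (7.09 to 9.34), whose ranges overlap, and Tcf7 at 5.06 (3.79 to 5.87) and Lef1 at 4.62 (3.8 to 5.4), whose ranges overlap too. Znrf3 at 2.21, Notum at 1.17, Lgr5 at 0.687 and Rnf43 at 0.462 were the lowest. Notum and Znrf3 overlap in range (1.07 to 2.4 and 1.91 to 2.36), since the highest Notum value is in the cKO. These levels rest on the deposited log2 values and on the union of annotated exons.

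By position, 5 of the 10 genes lie on chromosome 11 (Axin2, Notum, Rnf43, Znrf3 and Tcf7), beside 8.01% of the 13913 tested genes with a position. The others lie on chromosomes 2 (Sp5), 3 (Lef1), 6 (Tcf7l1), 8 (Nkd1) and 10 (Lgr5).

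The rest of the pathway was read from lists of 101 other genes written by role, of which 91 were tested. Between the cKO and the floxed control 30 rose and 15 fell, beside 19.5% and 18.8% of all genes, a share to hold against each list below. Between the cKO and the Cre control 12 rose and 3 fell, beside 4.86% and 4.85%, and between the control genotypes Wnt1 alone passed, beside 0.057% in either direction. The 15 that passed against the Cre control became 24 without Cre control library 1, 5 without Cre control library 3, 7 without any 1 of the cKO libraries, 6 in a fit of only the 6 libraries compared and 9 with no filter. Between the control genotypes 4 passed without Cre control library 1, and 2 passed without floxed control library 2, after quantile normalization or with the replicate block. Without floxed control library 1 or 3, or any 1 cKO library, between 30 and 34 passed against the floxed control. Among 17 Wnt ligands, 10 rose over the floxed control and 0 fell. Wnt9b rose by 1.21 (adjusted p = 2.856e-04) and Wnt10a by 0.74 (adjusted p = 0.00101). Against the Cre control Wnt9b rose by 0.88 (adjusted p = 0.00614), Wnt1 fell with the losses given above, and the other 15 did not pass. The median log2 difference of the ligands was 0.26 over the floxed control, 0.097 over the Cre control, and 0.29 between the control genotypes. Of the genes for Wnt secretion, Wls, which carries Wnts to the cell surface, rose by 0.27 over the floxed control (adjusted p = 0.00692) and Porcn, which adds their lipid, fell by 0.28 (adjusted p = 0.0225), and neither passed against the Cre control.

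Among 17 receptors and R-spondins, 4 rose and 2 fell over the floxed control, and 3 rose and 1 fell over the Cre control. The Frizzled receptor Fzd9 rose by 0.49 (adjusted p = 4.713e-04) and by 0.43 (adjusted p = 0.00425), and Fzd2 by 0.36 (adjusted p = 0.00105) and by 0.21 (adjusted p = 0.0373). Fzd6 rose over the floxed control by 0.42 (adjusted p = 0.00359), and Fzd7 over the Cre control by 0.24 (adjusted p = 0.0426). Among 14 secreted and surface antagonists, 6 rose and 1 fell over the floxed control, and 3 rose and 1 fell over the Cre control. Apcdd1, a membrane inhibitor that is also a Wnt target, rose by 0.57 (adjusted p = 4.511e-04) and by 0.36 (adjusted p = 0.0141). Kremen2, which removes Lrp6 together with Dkk proteins, rose by 0.71 (adjusted p = 3.053e-04) and by 0.29 (adjusted p = 0.0361), and Frzb, a decoy that binds Wnts, by 0.35 (adjusted p = 0.0150) and by 0.74 (adjusted p = 0.00351). Draxin, a secreted antagonist, fell by 0.69 from the floxed control (adjusted p = 1.269e-04) and by 0.49 from the Cre control (adjusted p = 0.00160).

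Inside the cell, 3 of 18 genes for transducers and the destruction complex rose and 6 fell against the floxed control, with Apc2 falling by 0.46 (adjusted p = 0.00422) and Apc by 0.40 (adjusted p = 0.00687). Dvl2 rose by 0.19 (adjusted p = 0.00461) over the floxed control and by 0.16 (adjusted p = 0.0364) over the Cre control, where Nkd2, the paralog of Nkd1, rose by 0.31 (adjusted p = 0.0266), and 0 of the 18 fell there. Ctnnb1, which codes for beta-catenin, did not pass, with log2 differences of 0.088 (adjusted p = 0.214) and 0.076 (adjusted p = 0.369). Among 12 nuclear partners, 2 rose and 4 fell over the floxed control, and Sp8, the nearest relative of Sp5 in the list, rose by 0.73 (adjusted p = 4.794e-04) and over the Cre control by 0.59 (adjusted p = 0.00677). Pygo1 fell by 0.26 (adjusted p = 0.00394) and Tle1, a corepressor, by 0.23 (adjusted p = 0.00399) from the floxed control.

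Among 11 other known beta-catenin targets, 4 rose and 1 fell over the floxed control, and 2 rose over the Cre control. Tnfrsf19 rose by 0.57 (adjusted p = 1.904e-04) and by 0.23 (adjusted p = 0.0266). Jun rose by 0.19 (adjusted p = 0.0295) and by 0.23 (adjusted p = 0.0447), and Fosl1 fell by 0.19 from the floxed control (adjusted p = 0.0159). Ccnd1, the cyclin D1 gene, had log2 values of 12.98, 12.86 and 12.84 in the floxed control, then 13.27, 12.98 and 13.18 in the Cre control, and 13.20, 13.06 and 13.04 in the cKO. The cKO lay above the floxed control without overlap and overlapped the Cre control. Its log2 difference of 0.20 from the floxed control did not pass (adjusted p = 0.0555). It passed in 5 of 17 alternatives: quantile normalization (adjusted p = 0.0497), the replicate block (0.0137), only the 6 libraries compared (0.0153), and without Cre control library 1 (0.0244) or 2 (0.0222). The log2 difference from the Cre control was -0.045 (adjusted p = 0.718).

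**Figure D4:**
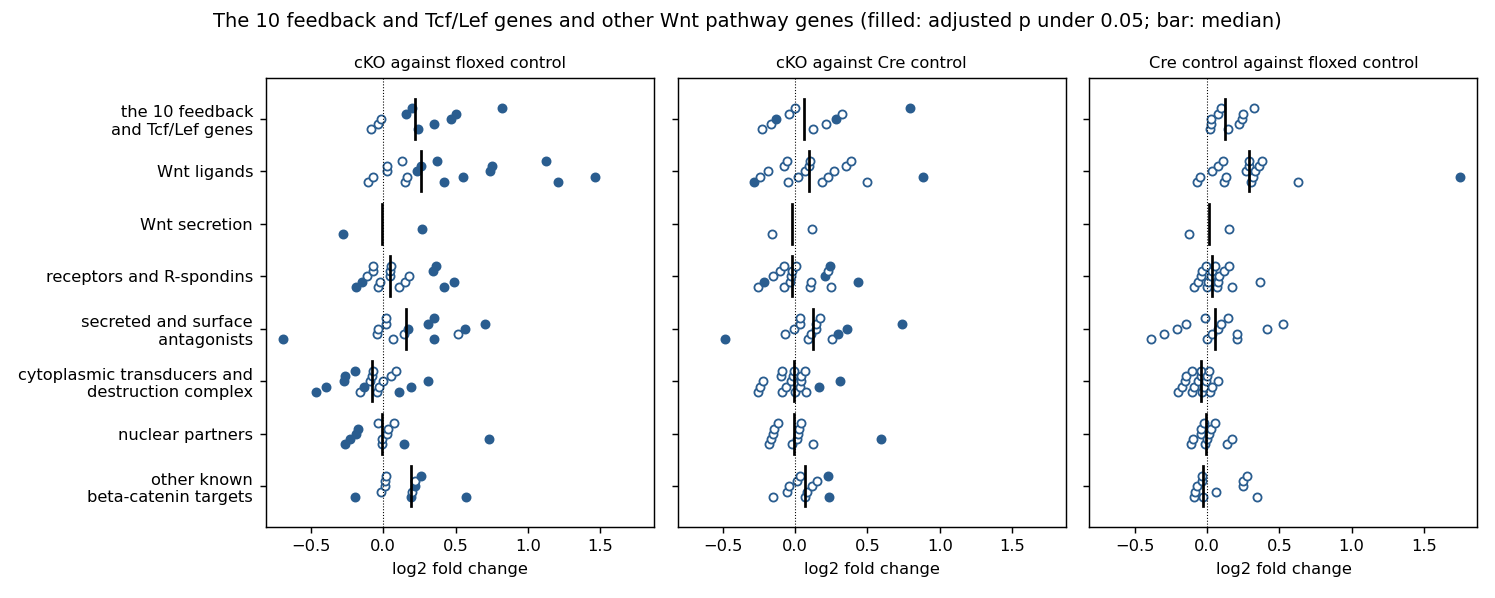
Each point is 1 gene, placed by its log2 fold change on the horizontal axis and by its role on the vertical axis, filled where the adjusted p was under 0.05, and the bar is the median of the role. Filled points stand on both sides of 0 in the first comparison, are fewer in the second, and in the third only Wnt1, at 1.75, is filled.

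Markers of the cell types in the tissue moved with the genotypes as well, and in bulk tissue fewer cells of a type and less RNA per cell cannot be told apart. Over the floxed control, 10 of 10 markers of dividing cells rose in the cKO and 10 of 10 neuron markers fell, and over the Cre control 4 of 10 of each did so. The summed level of the neuron markers was 6280 to 6710 cpm in the floxed control, 4930 to 6000 in the Cre control and 4240 to 4810 in the cKO, and that of dividing cells was 1330 to 1430, 1510 to 1710 and 1690 to 2020 cpm. From the floxed control over the Cre control to the cKO, the neuron sums fell without overlap. The sums of dividing cells rose, with overlap between the Cre control and the cKO. Tcf7 and Tcf7l1 rose in that order without overlap. Of 10 markers of neural progenitors, 5 rose over the floxed control and 3 over the Cre control.

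Markers of cells outside the neural tube were also present. Of 8 markers of meninges and mesenchyme, 6 rose over the floxed control and 0 passed over the Cre control, with summed levels of 995 to 1890 cpm in the floxed control, 1300 to 2200 in the Cre control and 2170 to 2300 in the cKO. Floxed control library 2, the highest of its group for these markers at 1891 cpm, was also the highest of its group for Tcf7 and Tcf7l1. It was the highest of its group for erythroid (9379 cpm) and endothelial (290.7 cpm) markers as well. Cre control library 2 was likewise the highest of its group for the mesenchyme markers, Tcf7 and Tcf7l1. In the cKO, library 1 was the highest for the mesenchyme markers (2296 cpm) and library 2 for Tcf7 and Tcf7l1. Endothelial markers were also highest in library 2 of the Cre control (313.1 cpm) and of the cKO (312.8 cpm). The markers of microglia and macrophages peaked in library 2 of each genotype, at 71.24, 71.61 and 75.85 cpm. Erythroid markers peaked in library 1 of the Cre control (7776 cpm) and library 3 of the cKO (16320 cpm). Of 8 erythroid markers, 6 rose over the floxed control and 3 over the Cre control, with sums of 5500 to 9380, 6570 to 7780 and 8470 to 16300 cpm. Of 8 endothelial markers 3 rose over the floxed control and 0 passed over the Cre control, and of 4 tested markers of crest glia and melanocytes 1 rose over the floxed control. None of the 6 markers of microglia and macrophages passed in either comparison. Of the 9 midbrain patterning markers 1 rose and 2 fell against the floxed control, and 1 rose against the Cre control. Of 3 tested hindbrain markers 2 fell against the floxed control, and neither of the 2 tested forebrain markers passed. No marker of these lists was at 0 in all 9 libraries. The part of these cell types in the values of the 10 genes was not tested.

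**Figure D5:**
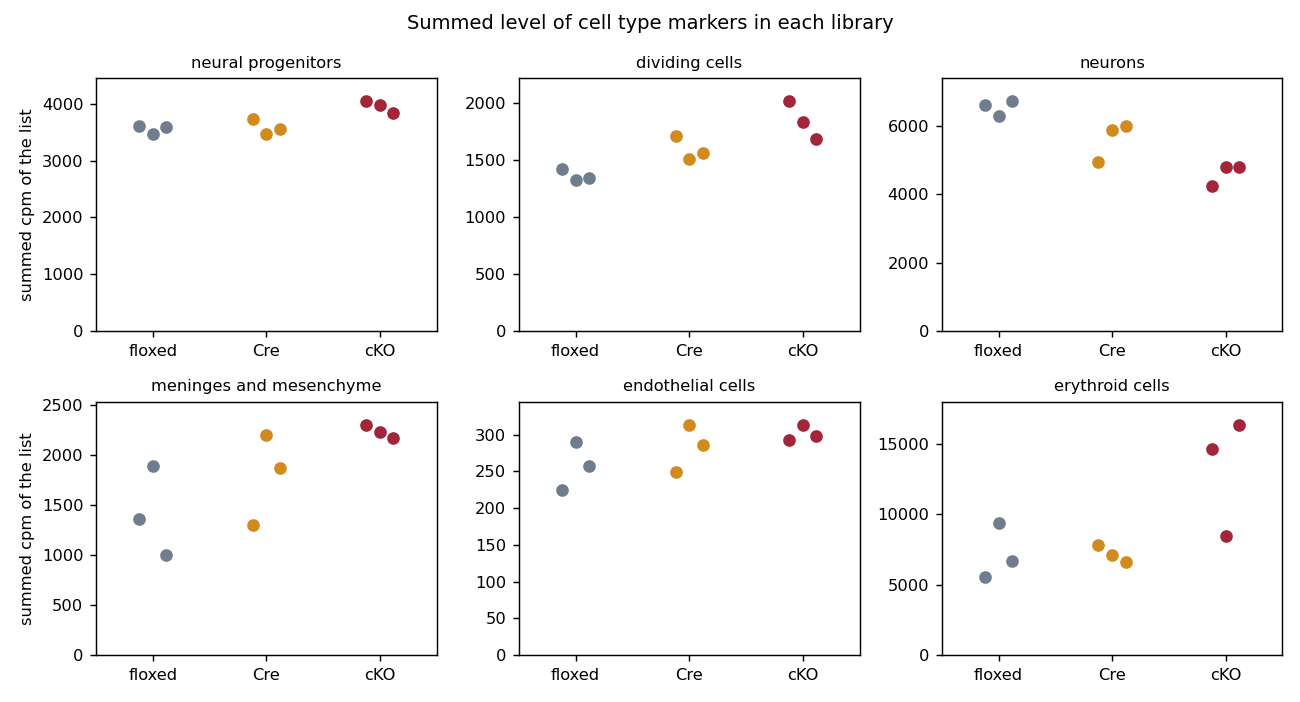
Each panel shows the summed linear level, in cpm, of the markers of 1 cell type in each library, with the 3 genotypes on the horizontal axis and an axis that starts at 0. Neuron markers are lowest in the cKO (4240 to 4810) and markers of dividing cells highest (1690 to 2020), while those of meninges and mesenchyme in the cKO (2170 to 2300) lie close to the highest Cre control library.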

How the data were processed

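Midbrain libraries were compared between genotypes, 3 per group. The authors deposited log2 values that had been normalized across the libraries, with no name given for the transformation, so the unit was read from the values. Whether differences of weak genes are compressed on this scale was not tested. The submitters' processing notes name FastQC 0.10.1, kallisto 0.46.1, DESeq2 and mm10 without their roles.

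Unnamed rows (5764, holding 0.334% to 0.396% of the linear sum) were left out, and 240 rows that repeated a name with a lower mean were dropped. Genes reaching 1 cpm, on linear values, in at least 3 libraries were tested (4.72 to 4.77 on the log2 scale). One mean per genotype was estimated from the 9 libraries together with limma 3.58.1 in R 4.3.3 (eBayes with a trend). Its moderated two-sided p-values were adjusted by Benjamini-Hochberg over the 14041 genes. "Passed", "rose" and "fell" mean an adjusted p under 0.05. The fold change limit of 1.5 and the p limit were read from the study's methods. Exact permutation was not used, because with 3 against 3 its smallest p is 0.1. The fit was checked on simulated data.

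The genes named are the 10 genes, Gpr161, Wnt1, Ccnd1, up to 3 genes per list and comparison with the smallest adjusted p among those that passed, and the 3 genes most correlated with each gene that passed, of which 1 is not reported here. Ctnnb1 and the example markers lie outside this rule and were named after their values were seen. The 10 genes and the lists were chosen with earlier results of these data known, and no list was tested as a set. Alternatives were the filter, the normalization, the pseudocount, the trend, the libraries fitted, the replicate block and each library left out. Gene positions are from GENCODE on GRCm38, the assembly of mm10.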

Additional observations from a re-analysis of the deposited data

How the results depend on the processing

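The direction of Nkd1, Notum, Rnf43, Znrf3, Tcf7, Tcf7l1 and Sp5 between the cKO and the floxed control held in every alternative computed. Of the values of single genes over all alternatives, 590 kept their direction and their side of the threshold, 41 lost a call, 12 gained one and 14 changed sign. The filter at 5 cpm left 8 of the 10 genes, without Notum and Rnf43, and 0 of those 8 passed the fold change limit.

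With 1 library left out at a time, the number of the 10 genes that passed ranged from 4 to 7 for the cKO against the floxed control, from 1 to 5 for the cKO against the Cre control, and from 0 to 0 between the control genotypes. At an unadjusted p under 0.05, 7 passed between the cKO and the Cre control and 5 between the control genotypes, and 1 passed there in eBayes without a trend. In these cases the cause was not tested.

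The signs that changed all belonged to differences near 0. With a library left out, Lgr5 ranged from -0.043 to 0.016 between the cKO and the floxed control. Between the cKO and the Cre control Nkd1 ranged from -0.060 to 0.029, Ccnd1 from -0.13 to 0.018 and Gpr161 from -0.054 to 0.071, and Gpr161 was at -0.010 with libraries centred on their medians. Between the control genotypes Rnf43 ranged from -0.059 to 0.12, Notum from -0.011 to 0.067 and Lgr5 from -0.0080 to 0.072.

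The replicate numbers are shared by the genotypes, but nothing in the labels ties them to a litter or a day. Around the genotype means, same-numbered libraries correlated between -0.027 and 0.26 (median 0.10). Differently numbered ones correlated between -0.28 and 0.16 (median -0.053). The numbers were not used as pairs because neither the labels nor the methods say what a number marks. With the replicate number as a block, 7, 2 and 0 of the 10 genes passed in the 3 comparisons. Axin2 lost its call against the Cre control (adjusted p = 0.0573) and Ccnd1 gained one against the floxed control (adjusted p = 0.0137).

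Depth is unknown and no counting error is given. With 3 libraries per genotype a miss of the threshold does not show that genotypes are alike.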
